A study of Homo sapiens with 14 samples.

Results

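HOX cluster genes encode homeodomain transcription factors that lie side by side in 4 chromosomal clusters, and 38 of them were examined here among the 20136 protein-coding genes of the annotation. HOXA contributed 10 genes, HOXB 10, HOXC 9 and HOXD 9. A gene was scored by the CUT&Tag peaks that shared at least 1 bp with its gene body plus 2 kb on each side (its window), and each cluster was also read along its span from the first to the last of these genes. The spans were chr7:27139973-27239710 for HOXA (99738 bp), chr17:46605888-46806112 for HOXB (200225 bp), chr12:54332615-54449814 for HOXC (117200 bp) and chr2:176957449-177055635 for HOXD (98187 bp), all in hg19. The genes are short and crowded. Their median window was 8218.5 bp against 31217 bp for all protein-coding genes, and 31 of the 38 windows overlapped the window of another HOX gene, so that 1 peak can score several neighbours.

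The peaks came from LX-2 cells, an established, immortalized human hepatic stellate cell line that was wild type in every library, grown for 2 days on soft or on stiff matrix. CUT&Tag, in which an antibody tethers a transposase that cuts and tags the DNA around its target, was run for phosphorylated JUN (p-JUN), for H3K4me3, a histone mark of promoters, and for H3K27me3, the mark laid down by Polycomb, with 2 libraries on each matrix. H3K27ac, which marks promoters and enhancers in use, came as 1 merged peak list per matrix. The soft libraries carried 2K in their titles and the stiff histone libraries 40K, whereas the stiff p-JUN libraries carried TCP, which in the study denotes tissue culture plastic, so for p-JUN the gel and the plastic cannot be told apart as the stiff condition.

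HOX genes are arranged in the order in which they are used along the body axis, and genes at the same position in different clusters are numbered alike as paralogs. Genes with low numbers pattern the hindbrain and neck, and those with high numbers pattern the trunk, limbs and tail end. Adult fibroblast-like cells keep part of this code as a record of where in the body they arose. Polycomb, through H3K27me3, and Trithorax, through H3K4me3, hold the genes off or on, and promoters that carry both marks are called bivalent. JUN is a subunit of AP-1, which binds the motif TGACTCA or its reverse complement TGAGTCA, and it also binds the related cyclic AMP response element (CRE), TGACGTCA, mostly with partners of the ATF family.

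The sequences below come from p-JUN regions of the clusters, with the AP-1 or CRE motif in capitals, all read from the plus strand of hg19. They were chosen because they hold the motif nearest to a summit within 50 bp, except the HOXB9 promoter, shown for its p-JUN summit without such a motif. The nearest summit is that of at least 1 library, and summits of other libraries in the HOXC10, LINC02086, HOXD11 and HOXA3 regions lay outside the stretch shown. In the same order they lie at chr12:54378807-54378836, chr17:46703980-46704040, chr17:46715265-46715465, chr17:46757042-46757102, chr2:176969056-176969116 and chr7:27148601-27148661.
HOXC10 promoter: cttgaccccgcTGACGTCAcggccgtctga
HOXB9 promoter: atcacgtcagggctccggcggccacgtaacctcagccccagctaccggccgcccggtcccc
HOXB9 to HOXB13 interval: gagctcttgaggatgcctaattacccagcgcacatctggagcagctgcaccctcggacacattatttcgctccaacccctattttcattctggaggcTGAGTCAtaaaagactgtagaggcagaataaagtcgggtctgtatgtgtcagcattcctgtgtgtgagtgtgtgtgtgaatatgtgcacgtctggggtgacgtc
LINC02086 interval left of HOXB13: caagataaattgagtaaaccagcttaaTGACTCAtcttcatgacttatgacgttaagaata
HOXD11 region: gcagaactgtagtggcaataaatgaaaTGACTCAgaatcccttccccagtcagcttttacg
HOXA3 region: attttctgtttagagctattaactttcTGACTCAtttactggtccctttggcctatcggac

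The peak lists differed in length between marks and libraries, and the read totals behind them were not analysed here. They held 48163 to 54168 p-JUN peaks, 18096 to 18857 H3K4me3 peaks and 18238 (soft) or 13322 (stiff) H3K27ac peaks. H3K27me3 was uneven, with 19843 peaks in the first soft library, 9228 in the second, and 7104 and 6974 in the stiff ones. H3K4me3 lay within 1 kb of a start site in all 4 libraries at 10 of 18 stellate and mesenchymal markers. Such calls were made at 0 of 8 hepatocyte markers, 1 of 4 epithelial, 1 of 3 endothelial and 1 of 4 blood markers. By the same rule 62.8% of all genes were called, a share above that of the stellate and mesenchymal markers. No test was run on these short lists. The stellate markers COL1A2, LUM, DCN, DES, GFAP and LRAT held no such peak in any library.

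To explore which HOX genes carried the promoter mark, H3K4me3 calls were counted first. H3K4me3 was present in the window of 33 of the 38 genes (86.8%) in all 4 libraries, where 66.9% of all protein-coding genes had such calls. HOXA10, HOXB1, HOXC12 and HOXD9 had none in any library, and HOXA9 had a peak in soft 1 and stiff 2 only. Within 1 kb of a start site, 29 genes (76.3%) were called in all 4 libraries against 62.8% of all genes. These were 7 of 10 HOXA genes, 8 of 10 HOXB genes, 8 of 9 HOXC genes and 6 of 9 HOXD genes. By paralog group they were 9 of 11 genes of groups 1 to 4, 9 of 11 of groups 5 to 8 and 11 of 16 of groups 9 to 13.

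No HOX window was called for H3K4me3 on 1 matrix alone. The number of genes with a peak was 34 and 33 on soft matrix, and it was 33 and 34 on stiff matrix, so the means were equal at 33.5 ± 0.707 (SD, n = 2 each, exact permutation p = 1). Genes called in both soft and neither stiff library numbered 0, where 0.214% of all genes were, and the reverse also gave 0, where 0.268% were. With 2 libraries against 2, the smallest two-sided p that the exact test allows is 0.333, for this and every comparison of matrices below.

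**Figure D1:**
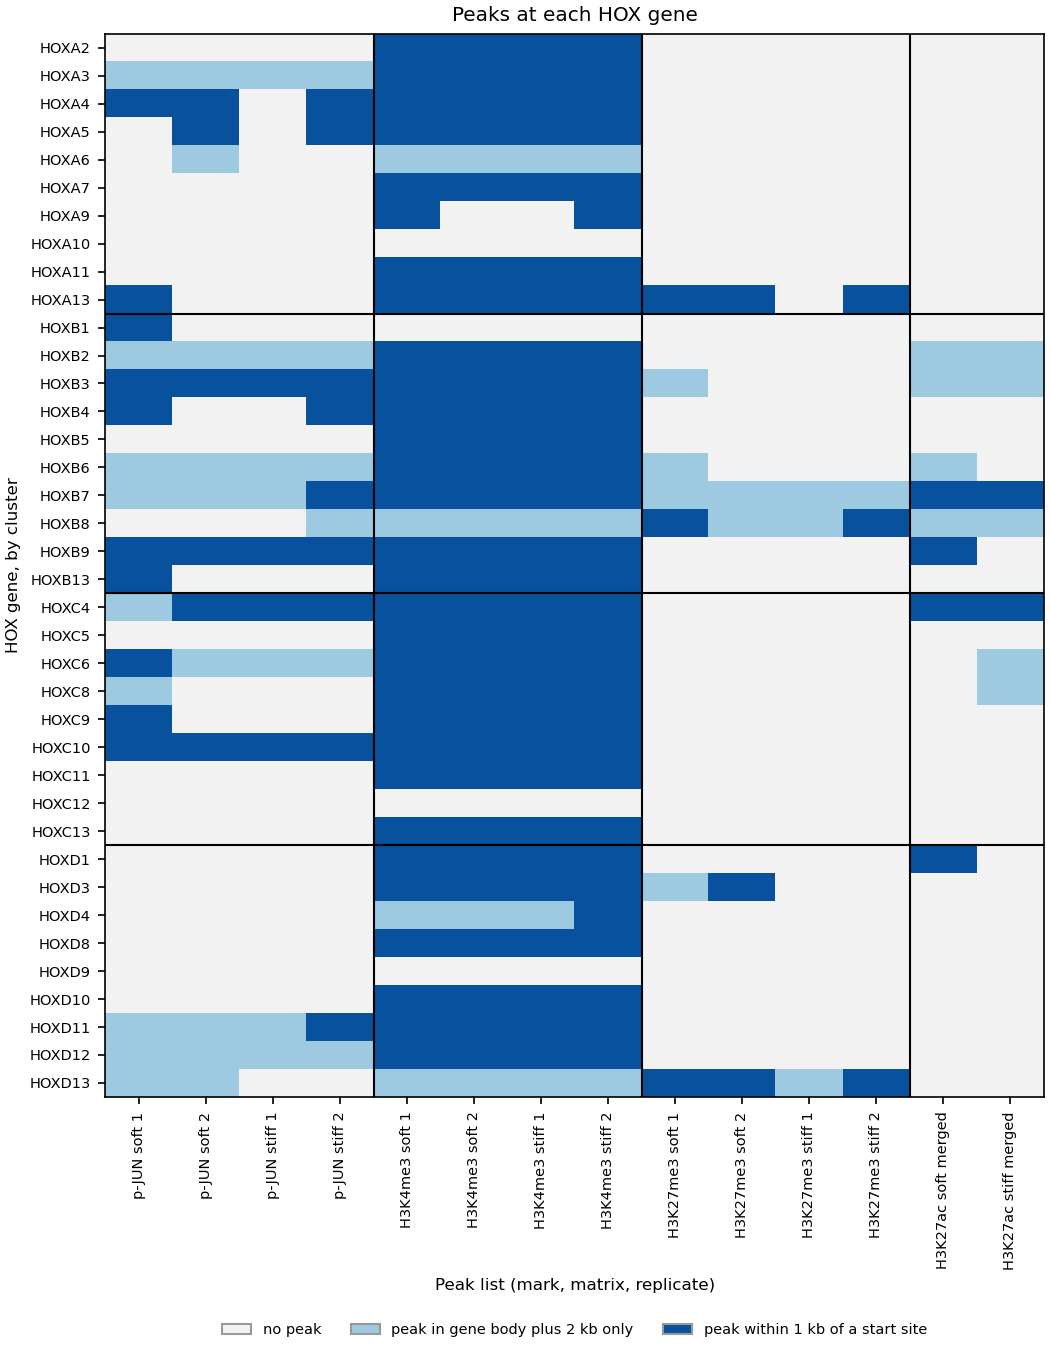
Peak calls at the 38 HOX genes (rows, by cluster) in the 14 peak lists (columns), with dark blue for a peak within 1 kb of a start site, light blue for a peak elsewhere in the gene body plus 2 kb, and grey for none. H3K4me3 fills most rows in all 4 libraries, p-JUN is patchy, H3K27me3 reaches 7 genes, and H3K27ac reaches HOXB, HOXC and HOXD1.

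The H3K4me3 peaks at HOX promoters had lower median fold, rank and width than promoter peaks at large. Fold here is the summit's fragments over the local background that the peak caller estimated. The median best promoter fold over the HOX genes with a promoter peak was 6.49 in soft 1, 6.19 in soft 2, 6.17 in stiff 1 and 6.88 in stiff 2, against 8.94, 9.19, 9.55 and 9.64 over all genes with one. Their median rank by significance within the list was the 32.0th, 37.7th, 37.4th and 39.2th percentile, where all such genes had medians from 68.4 to 69.4. Median widths were 917.5, 1034, 985 and 1033 bp against 1269 to 1348 bp. In each of the 4 libraries the HOX median lay below the median of all genes for all of these measures.

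The promoter with the highest mean fold in each cluster was HOXA5, HOXB13, HOXC4 and HOXD1. HOXD1, an anterior-group gene, had a best promoter fold of 12.2 and 11.9 on soft and 12.1 and 11.2 on stiff matrix. HOXC4, also of an anterior group, had 12.05 and 10.7 on soft matrix, then 11.2 and 10.6 on stiff. The soft and stiff values of both genes overlapped. HOXA5, which takes part in lung and neck patterning, had 9.15 and 10.1 on soft and 10.4 and 10.6 on stiff. HOXB13, a gene of the tail end and the prostate, had 7.93 and 8.61 on soft and 9.95 and 9.32 on stiff. In HOXA5 and HOXB13 both stiff values lay above both soft values. Among the 45 H3K4me3 regions of the clusters that were called in all 4 libraries, 15 had both stiff folds above both soft folds, where 39.7% of such regions genome-wide did, and 5 had the reverse, where 9.11% did. The median log2 ratio of mean folds, stiff over soft, was 0.06 over these regions and 0.07 over all, so the clusters moved with the rest of the list.

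**Figure D2:**
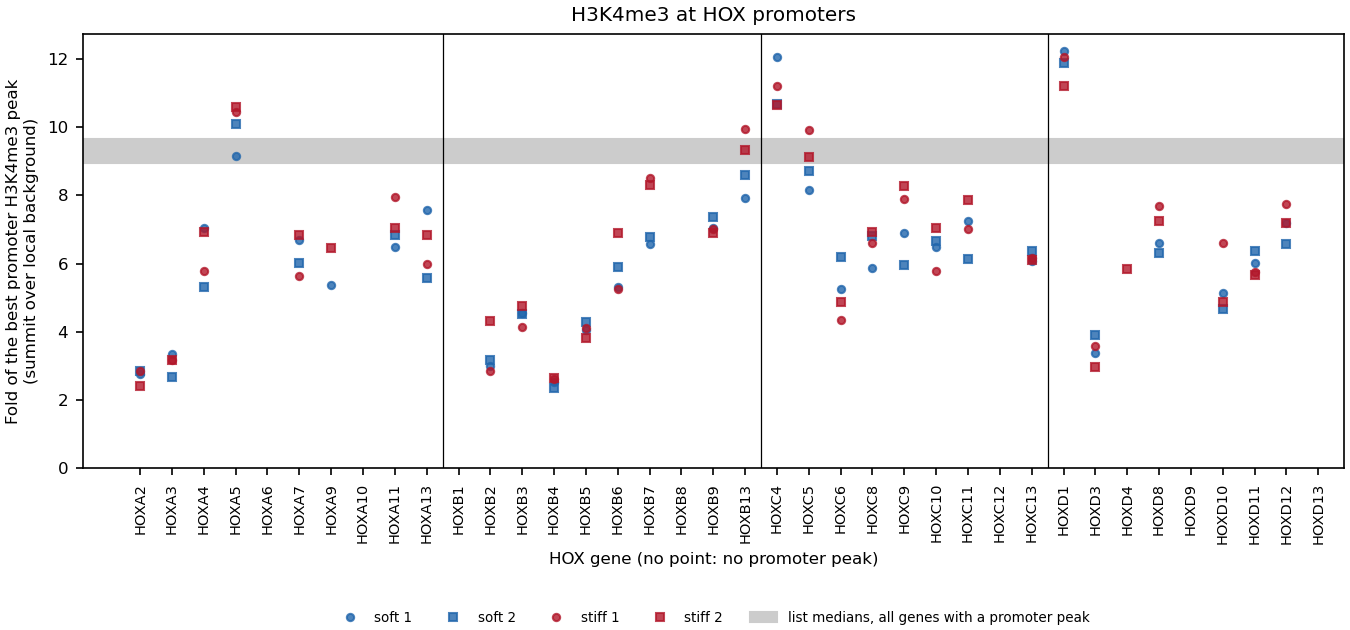
Fold of the best H3K4me3 peak within 1 kb of a start site (vertical axis, summit over local background) for each HOX gene, with 1 point per library (blue soft, red stiff) and the range of the 4 all-gene medians in grey. Most HOX points lie under the grey band, and HOXA5, HOXC4 and HOXD1 lie at or above it in all 4 libraries.

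Sequence composition around the start sites was compared as a feature that the choice of genes did not use. The ratio of observed to expected CpG over 500 bp on each side of the start had a median of 0.772 in the 29 HOX genes with a promoter call in all 4 libraries and 0.866 in the 9 without. Over all genes the medians were 0.789 with the call and 0.320 without. GC content was 59.7% and 59.6% in the HOX groups and 63.8% and 54.7% over all genes. The HOX genes without a full set of H3K4me3 calls thus had the higher CpG median, while over all genes the order was the reverse, and no test was run on this.

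Along the spans, H3K4me3 formed 58 merged regions, 13 in HOXA, 23 in HOXB, 13 in HOXC and 9 in HOXD, and 40 of them touched a window of 1 kb around a HOX start site. All 4 libraries held 45 of the 58 (77.6%), where 78.9% of all H3K4me3 regions were held by all 4. The regions covered 9.16% and 10.2% of the spans on soft and 9.24% and 10.6% on stiff matrix, a mean difference of 0.215 percentage points (SDs 0.753 and 0.936, n = 2 each, exact permutation p = 0.667). The genome as a whole was covered at 0.627% to 0.689%, and the 100 kb on each side of the clusters at 1.46% to 1.87%. HOXC had the highest covered share, 11.1% to 12.9%. HOXA was the cluster in which the groups did not overlap, with 8.11% and 8.20% on soft and 8.63% and 10.2% on stiff, a difference of 1.26 points (SDs 0.0624 and 1.11, exact permutation p = 0.333). In the other clusters the soft and stiff shares overlapped, with differences of 0.0232 points in HOXB, -0.0956 in HOXC and -0.0845 in HOXD (exact permutation p = 1 in each). With the stricter threshold the HOXD difference turned to 0.996 points, and the groups did not overlap (exact permutation p = 0.333).

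A few H3K4me3 regions were called on 1 matrix alone. In soft libraries only there was 1 region, where 1.25% of all regions were soft-only, and in stiff libraries only there were 2, where 1.77% were. The soft region, chr17:46749167-46749612, lay in the HOXB9 to HOXB13 interval, outside the windows of both genes, and rested on 22 and 25 fragments at the summit, with folds of 9.91 and 10.2. One stiff region, chr17:46652912-46653369 at HOXB4, had low folds of 1.89 and 1.74 on 191 and 251 fragments. The other, chr2:177025730-177026269 inside HOXD3, had folds of 3.59 and 2.96 on 51 and 61 fragments. All 3 ranked under the 20th percentile of their lists by significance, as the largest of their percentiles was 18.8.

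**Figure D3:**
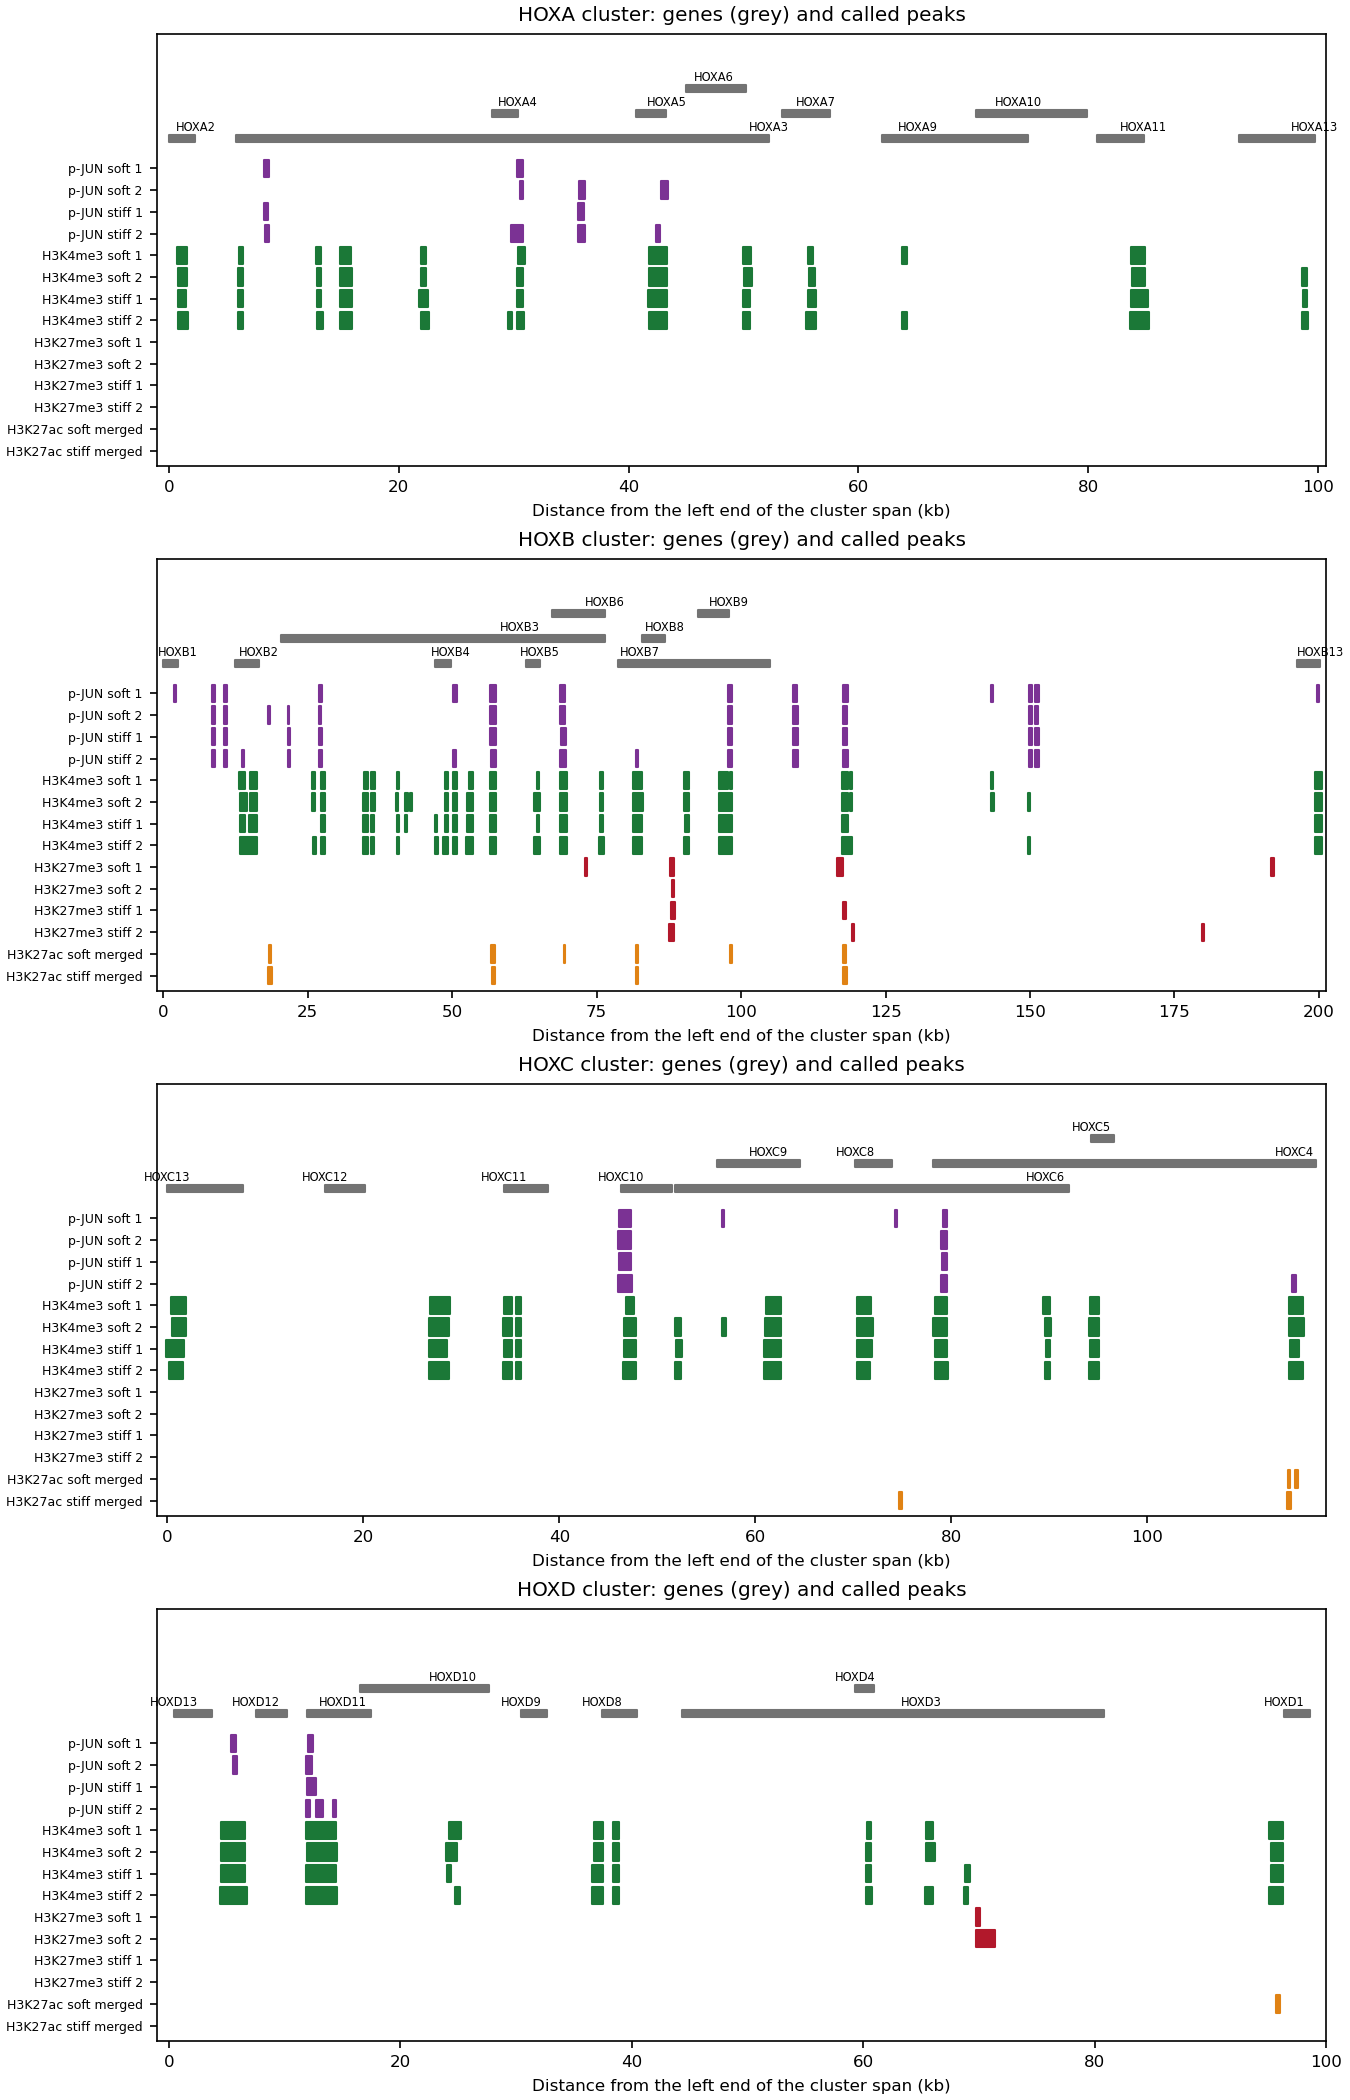
Called peaks along the 4 HOX clusters (horizontal axis, distance from the left end of each span in kb), with genes in grey and 1 row per peak list, purple p-JUN, green H3K4me3, red H3K27me3 and orange H3K27ac. H3K4me3 recurs in the same places on both matrices, p-JUN concentrates in HOXB, and the HOXA and HOXC spans hold no H3K27me3 peak. The H3K27me3 regions at HOXA13 and HOXD13 lie just outside the spans and are not drawn.

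HOXB H3K4me3 peaks sat on a high local background. The peak files allow the fragments at a summit and the local background to be recovered, and the median background of HOXB peaks was 30.1 fragments in soft 1, 41.9 in soft 2, 55.4 in stiff 1 and 58.9 in stiff 2. The medians of the full lists were 13.6, 15.9, 16.6 and 22.4. The other clusters lay below or slightly above the lists, with 8.09, 11.4, 9.68 and 7.52 in HOXA, 15.2, 19.6, 18.3 and 26.9 in HOXC and 9.55, 12.1, 12.2 and 19.9 in HOXD. Of the HOXB peaks, 8 of 22, 10 of 24, 8 of 20 and 6 of 20 lay in the top 5% of their list by local background, and 0 peaks of HOXA, HOXC or HOXD did in any library. In the library with the widest spread of such peaks, soft 1, they ran from 46618945 to 46675731, from HOXB2 to HOXB6.

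Fold and fragment number therefore ranked the same HOXB genes differently. At HOXB4, chr17:46656080-46656763, the fold was 2.54, 2.36, 2.63 and 2.65, in the order soft 1, soft 2, stiff 1 and stiff 2. The same summits held 212, 252, 314 and 454 fragments, between the 76.1th and 83.7th percentile of their lists, over a background of 83.0, 106, 119 and 171 fragments, at the 99.7th to 99.8th percentile. At HOXB6, inside the long gene body of HOXB3, chr17:46674595-46675751, both measures were high, with folds of 7.91, 8.25, 8.58 and 8.67 and 371, 466, 480 and 722 fragments. HOXB7, chr17:46687162-46688855, had folds of 6.56 and 6.79 on soft and 8.50 and 8.30 on stiff. In these 3 regions, each of the stiff folds was above each of the soft folds, a pattern held by 39.7% of all regions. The other HOXB H3K4me3 region of similar rank lay between HOXB9 and HOXB13, chr17:46723279-46725117, with folds of 10.3 and 11.4 on soft and 11.1 and 11.5 on stiff, which overlap. The p-JUN peak called at HOXB4 in soft 1 had a background of 9.76 fragments, beside a p-JUN list median of 7.47.

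**Figure D4:**
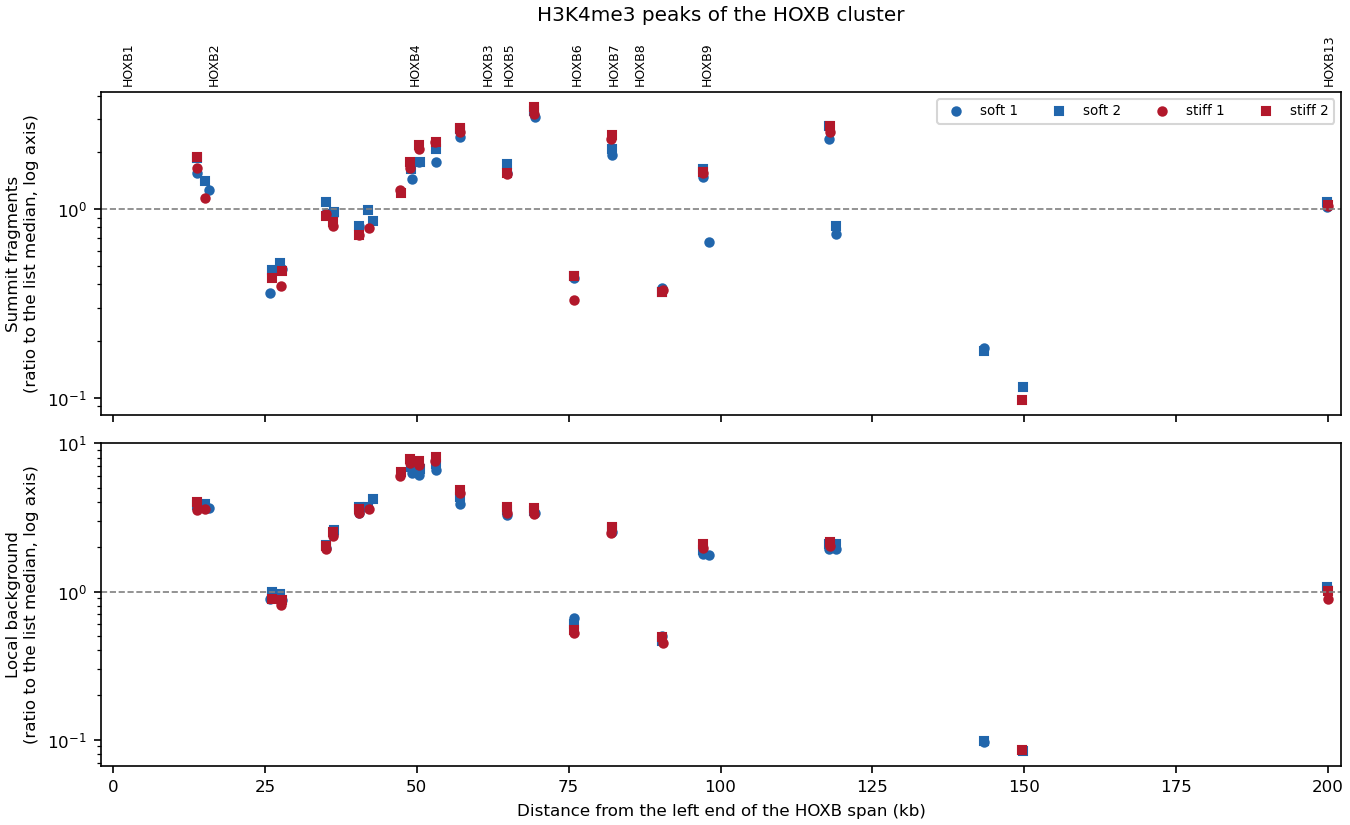
Summit fragments (upper axis) and local background (lower axis) of each H3K4me3 peak of HOXB, both as a ratio to the median of its own list on a log axis, against distance from the left end of the span (blue soft, red stiff, circles replicate 1 and squares replicate 2). The background rises to its highest ratios around HOXB4 in all 4 libraries, while HOXB13 sits near a ratio of 1.

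To explore where p-JUN met the clusters, its calls were counted in the same way. p-JUN reached few HOX genes. In all 4 libraries it lay in the window of 11 genes (28.9%), HOXA3, HOXB2, HOXB3, HOXB6, HOXB7, HOXB9, HOXC4, HOXC6, HOXC10, HOXD11 and HOXD12, where 58.2% of all genes were called. HOX windows are shorter than most, and the part of window length in this count was not tested. At promoters 3 genes (7.89%) were called against 38.2% of all genes, where HOX genes had a median of 1 annotated start site and all genes 3. Another 16 genes had no p-JUN peak in any library. They were HOXA2, HOXA7, HOXA9, HOXA10, HOXA11, HOXB5, HOXC5, HOXC11, HOXC12, HOXC13, HOXD1, HOXD3, HOXD4, HOXD8, HOXD9 and HOXD10. A further 10 genes were called in 1 to 3 libraries, 7 of them on 1 matrix but in only 1 of its libraries. By paralog group the genes called in all 4 libraries were 4 of 11 in groups 1 to 4, 3 of 11 in groups 5 to 8 and 4 of 16 in groups 9 to 13.

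The number of HOX genes with p-JUN was 19 and 15 on soft matrix, and it was 11 and 15 on stiff matrix. The groups met at 15, and the means of 17 ± 2.83 and 13 ± 2.83 differed by -4 genes (SD, n = 2 each, exact permutation p = 0.667). HOXD13 was the only gene called in both soft and neither stiff library, where 0.8% of all genes were, and 0 genes showed the reverse, where 0.442% did. Its region, chr2:176962325-176962871, lay between HOXD13 and HOXD12 and rested on 23 and 18 fragments with folds of 5.31 and 4.90, at the 6.13th and 1.42th percentile of the lists. It is therefore a pair of calls near the lower limit of both soft lists.

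Of the 3 promoters with p-JUN in all 4 libraries, those of HOXB9 and HOXC10 were the clear ones. HOXC10, a gene of the lumbar region and hindlimb, had folds of 6.66 and 7.01 on soft and 6.74 and 6.81 on stiff matrix, on 136, 122, 106 and 118 fragments. Its region, chr12:54378556-54380015, spans the promoter and the start of the gene and holds the CRE shown above. HOXB9, which patterns the thoracic skeleton, had folds of 7.34 and 8.01 on soft and 7.72 and 7.84 on stiff, on 141, 136, 118 and 150 fragments. Its summit fell on the same base, 290 bp upstream of the start site, in all 4 libraries, and its region, chr17:46703561-46704287, holds neither TGACTCA nor TGAGTCA. In both genes the soft and stiff folds overlapped. HOXB3 was called at an internal start site with lower folds, 4.26 and 4.10 on soft and 4.12 and 5.40 on stiff, on 36, 31, 32 and 43 fragments.

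The p-JUN region with the highest rank in the clusters lay in none of the windows. It covered chr17:46714867-46715759 in the HOXB9 to HOXB13 interval, 11147 bp from the HOXB9 start and within the annotated long non-coding RNA gene LINC03057. The folds were 12.4 and 11.4 on soft and 11.7 and 12.2 on stiff matrix, on 342, 298, 307 and 347 fragments, at the 95.8th, 94.8th, 95.5th and 95.7th percentile of the lists. The 4 libraries were thus nearly alike, and the region overlapped no H3K4me3, H3K27me3 or H3K27ac peak. Its AP-1 motif, printed above, lay 23 bp from the nearest summit.

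In HOXD the leading p-JUN region was at HOXD11, a gene of the forearm and lower spine, chr2:176968797-176969695. The folds were 5.45 and 5.85 on soft and 4.63 and 4.15 on stiff matrix, on 48 and 43 against 27 and 34 fragments, and the groups did not overlap. The part of the HOXD11 window inside p-JUN peaks went the other way, also without overlap. Stiff replicates 1 and 2 had 7.84% and 12.7%, whereas soft replicates 1 and 2 had 4.16% and 5.58%. Stiff replicate 2 held 3 peaks in this window, and each other library held 1. Among the 13 HOX p-JUN regions held by all libraries, only the HOXD11 region showed both soft folds above both stiff folds. Genome-wide 12.1% of such regions did. The reverse was also seen in 1 of the 13, where 24.9% did, a region between HOXB1 and HOXB2 with 4.89 and 4.97 on soft matrix, then 5.32 and 5.85 on stiff. The median log2 ratio, stiff over soft, was 0.03 over the 13 regions and 0.04 over all. In HOXA no region was called in all 4 libraries, and the leading one, at the HOXA4 promoter, chr7:27169763-27170831, had folds of 5.23 and 5.43 on soft and 5.77 in stiff 2, with no call in stiff 1.

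Across the spans p-JUN formed 32 regions, of which 18 lay in HOXB. All 4 libraries held 13 of them (40.6%), where 65.8% of all p-JUN regions were held by all 4. The soft-only regions numbered 1, where 1.74% of all were, and the stiff-only regions 0, where 2.75% were. Within HOXB 10 of 18 were held by all libraries, in HOXC 2 of 5, in HOXD 1 of 4 and in HOXA 0 of 5. Most HOX p-JUN peaks were weak, with a median percentile of 22.4, 28.1, 16.5 and 22.1 in the 4 lists. They coincided with the promoter mark often: 22 of the 32 regions (68.8%) overlapped an H3K4me3 peak, against 14127 of all 61411 p-JUN regions, whereas 7 (21.9%) overlapped H3K27ac against 29.7%.

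AP-1 motifs were sparse under these peaks. A TGACTCA or TGAGTCA, searched on both strands, lay within 50 bp of the summit in 3 of 22, 4 of 19, 2 of 16 and 4 of 24 HOX peaks of the 4 libraries. These are 13.6% and 21.1% on soft and 12.5% and 16.7% on stiff matrix, where 32.2%, 32.4%, 32.8% and 30.6% of all p-JUN peaks of the same libraries had the motif. A CRE lay as near in 1 HOX peak of each library, that of HOXC10, where 0.722% to 0.830% of all peaks had one. Since the peaks of the 4 libraries are mostly the same regions, these shares are not independent, and no test was run.

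The covered share showed the same picture by cluster. p-JUN peaks covered 4.08% and 3.39% of HOXB on soft and 3.32% and 4.03% on stiff matrix. In HOXA the shares were 1.03% and 1.35% on soft and 0.867% and 2.17% on stiff, so that the highest and the lowest value were both from stiff libraries. HOXC had 1.81%, 1.71%, 1.52% and 2.21%, and HOXD 0.896%, 0.876%, 0.762% and 1.24%. Over all 4 clusters the mean difference, stiff minus soft, was 0.0863 percentage points (SDs 0.163 and 0.548, n = 2 each, exact permutation p = 1). By cluster it was 0.3299 in HOXA, -0.0612 in HOXB, 0.109 in HOXC and 0.113 in HOXD (exact permutation p = 1, 0.667, 1 and 1). These small differences turned direction with a stricter peak threshold in HOXD (-0.308). Without stiff replicate 2 they were -0.301 over all clusters, -0.322 in HOXA, -0.237 in HOXC and -0.124 in HOXD.

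**Figure D5:**
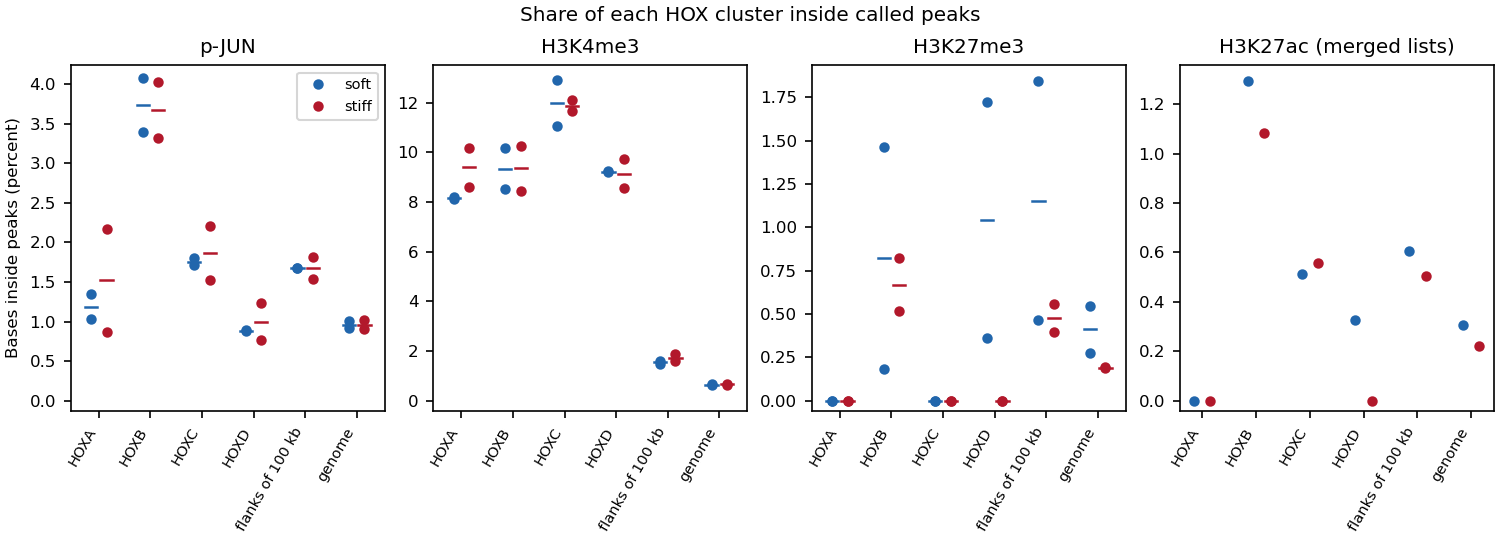
Percent of bases inside peaks (vertical axis, from 0) for each HOX cluster, the 100 kb on each side of the clusters and the genome, with 1 point per library (blue soft, red stiff) and a short line at the mean of 2 libraries. H3K4me3 covers 8.11% to 12.9% of every cluster against under 0.7% of the genome, p-JUN is highest in HOXB, and the HOXA and HOXC spans lie at 0 for H3K27me3.

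H3K27me3, the mark that Polycomb spreads over silent HOX clusters in many cell types, was called at few HOX genes. Of the 38 genes, 31 had no H3K27me3 peak in any library. In all 4 libraries it lay in the windows of HOXB7, HOXB8 and HOXD13, which is 3 genes (7.89%) against 6.42% of all genes, and 0 HOX promoters were called in all 4, where 2.43% of all promoters were. Promoters where H3K4me3 and H3K27me3 were each called in their 4 libraries numbered 0 of 38, where 0.763% of all genes were bivalent by this rule. The HOXA13 promoter came nearest, with H3K4me3 in 4 libraries and H3K27me3 in 3, in regions that overlapped. The HOXD13 promoter had H3K27me3 in 3 libraries but H3K4me3 in 0. In whole windows, HOXB7, HOXB8 and HOXD13 held both marks in all libraries, in regions that did not overlap.

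The regions behind these calls lay upstream of start sites. HOXB7 and HOXB8 shared 1 region, chr17:46693461-46694413, 807 bp upstream of the HOXB8 start. Its peaks were 848 and 366 bp wide on soft and 571 and 823 bp on stiff matrix, with folds of 3.22, 3.14, 3.78 and 3.41. HOXD13, the gene of the digits and the outermost of its cluster, had a region 569 bp upstream of its start, chr2:176954492-176956880, with peaks of 981 and 2300 bp on soft and 496 and 734 bp on stiff. The folds of the HOXD13 peaks were 2.70, 2.51, 2.64 and 2.38. HOXA13, the outermost gene of HOXA, had peaks of 794 and 807 bp on soft and 513 bp in stiff 2 beyond its start, at chr7:27240219-27241323, and none in stiff 1. The HOXD13 and HOXA13 regions lay just outside the spans. The covered shares, region counts and longest peaks given for the spans therefore leave them out. The share of the HOXD13 window inside peaks was 13.6% in soft 1, 18.6% in soft 2, 6.87% in stiff 1 and 10.2% in stiff 2, and for HOXB8 10.7%, 4.62%, 7.21% and 10.4%. The soft and stiff shares of HOXB8 overlapped. Those of HOXD13 did not, beside a covered share of the whole genome that was also higher in both soft libraries.

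HOXD3 was the only gene called in both soft and neither stiff library for H3K27me3, where 2.03% of all genes were, and 0 showed the reverse, where 0.0248% did. Its region, chr2:177026741-177028439, was 353 bp wide in soft 1 and 1691 bp in soft 2, with folds of 2.53 and 2.59. Both calls ranked in the lower part of their lists, at the 26.9th and 24.3th percentile. The span of HOXD was accordingly covered at 0.360% and 1.72% on soft and 0% in both stiff libraries (difference -1.04 points, SDs 0.964 and 0, n = 2 each, exact permutation p = 0.333). With lists of equal length, or with a stricter threshold, the difference in HOXD was 0 and HOXD3 was no longer called on 1 matrix alone.

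Over all genes of the clusters the number with H3K27me3 was 7 in soft 1, 5 in soft 2, 3 in stiff 1 and 4 in stiff 2, with means of 6 ± 1.41 and 3.5 ± 0.707 and no overlap between the groups (difference -2.5, SD, n = 2 each, exact permutation p = 0.333). That difference was 0 with lists of equal length and -0.5 with the stricter threshold (exact permutation p = 1 in both). The share of all genes called was 18.7%, 12.1%, 10.1% and 10.3% in the same order, beside the lengths of the lists given above. The spans were covered at 0.638% and 0.399% on soft and 0.201% and 0.319% on stiff (difference -0.258 points, SDs 0.169 and 0.0833, exact permutation p = 0.333), and the genome at 0.548%, 0.273%, 0.189% and 0.192%. When every list was cut to the length of the shortest, the difference over the spans became 0.143 points, so its direction turned. HOXB was covered at 1.46% and 0.183% on soft and 0.518% and 0.822% on stiff, where the groups overlapped (difference -0.154, SDs 0.907 and 0.214, exact permutation p = 1).

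H3K27me3 peaks inside the spans were few, 5 and 2 on soft and 2 and 3 on stiff matrix. Their median widths were 583 and 1028.5 bp on soft and 519 and 425 bp on stiff, beside list medians of 618, 661, 593.5 and 605.5 bp, so the order differed between libraries. The longest peak inside the spans was 1147 and 1691 bp on soft and 571 and 823 bp on stiff matrix. In all there were 7 regions in the spans, 6 in HOXB and 1 in HOXD. All 4 libraries held 1 of them, the one upstream of HOXB8, where 10.2% of all H3K27me3 regions were held by all 4. The soft-only regions numbered 1, where 7.54% were, and the stiff-only regions 0, where 0.484% were. The depth of these libraries is unknown, so a region without a call was not detected rather than shown to lack the mark.

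H3K27ac was described without a test, as each matrix had 1 merged list. Both lists held a peak in the windows of HOXB2, HOXB3, HOXB7, HOXB8 and HOXC4, 5 genes (13.2%) against 34% of all genes, and at the promoters of HOXB7 and HOXC4, 2 genes (5.26%) against 21.3%. Soft only calls were made for HOXB6, HOXB9 and HOXD1, 3 genes (7.89%), where 11.5% of all genes were soft-only. With the stricter threshold the soft-only genes were HOXB6, HOXB7, HOXB8 and HOXC4 and the stiff-only genes numbered 0. Stiff only calls at the deposited threshold were made for HOXC6 and HOXC8 through 1 shared peak, 2 genes (5.26%), where 2.97% were stiff-only. No HOXA gene had H3K27ac in either list.

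The H3K27ac peaks common to both matrices were of similar fold. Between HOXB9 and HOXB13, chr17:46723552-46724219, the fold was 8.48 on soft and 8.09 on stiff, in the interval region that also held H3K4me3 and p-JUN in all libraries. HOXB7, chr17:46687716-46688123, had 6.61 on soft and 5.60 on stiff, and HOXC4, chr12:54446850-54447226, had 5.41 and 5.98. Within HOXB3, chr17:46662665-46663372, the fold was 4.15 on soft and 3.08 on stiff, and between HOXB2 and HOXB3, chr17:46624096-46624705, it was 3.72 and 4.62. Neither matrix was higher throughout.

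The calls made on 1 matrix came from 4 peaks of low rank. HOXB6 had a soft fold of 5.10 on 29 fragments, HOXB9 one of 5.56 on 22 and HOXD1 one of 7.11 on 12. The stiff peak shared by HOXC6 and HOXC8, chr12:54407244-54407521, had a fold of 4.11 on 28 fragments. These 4 peaks ranked at the 30.9th, 19.7th, 12.2th and 11.1th percentile of their lists, and list medians were 27 fragments on soft and 26 on stiff, so HOXB9 and HOXD1 lay below the median and the other two peaks just above it. The stiff list was also the shorter, and 45.5% of all genes were called on soft against 37.003% on stiff, beside 8 and 7 HOX genes.

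Genes that act with or on the HOX factors were read as a setting for these results. The TALE cofactors, homeodomain proteins of the PBX, MEIS and PKNOX families that bind DNA together with HOX proteins, had H3K4me3 at 9 of 9 promoters in all 4 libraries, p-JUN in 7 of 9 windows and H3K27me3 in 1. Of the Polycomb and Trithorax regulators, 23 of 23 had H3K4me3 at the promoter, 15 of 23 had p-JUN in the window and 1 had H3K27me3. Over all genes, 62.8% had such H3K4me3 calls at the promoter and 66.9% in the window. Window calls were made at 58.2% of all genes for p-JUN and at 6.42% for H3K27me3. Of 10 HOX-related homeobox genes outside the clusters or at their edges, such as CDX2 and PDX1, 6 had H3K4me3 in the window, 6 had H3K27me3 and 2 had p-JUN in all 4 libraries, so H3K27me3 was called at 6 of 10 of them against 3 of 38 HOX genes, without a test.

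H3K27ac was called in both lists at 5 of the 9 TALE genes, 0 of the 10 HOX-related genes and 8 of the 23 regulators. The share over all genes was 34%. It was on soft only at RBBP7 (fold 6.71), JARID2 (7.52), KDM6A (6.14) and KMT2B (5.29), chromatin regulators of the Polycomb and Trithorax systems. Calls on stiff only were made at PKNOX2 (7.71) and MTF2 (5.62), a Polycomb accessory protein. Over all genes 11.5% were soft-only and 2.97% stiff-only, and the stiff list was the shorter. These peaks ranked at the 20.7th, 63.7th, 31.3th and 39.5th percentile on soft and the 27.9th and 14.6th on stiff, in the order named. No gene of the 3 lists was called on 1 matrix alone for p-JUN, H3K4me3 or H3K27me3.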

How the data were processed

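The data were 14 CUT&Tag peak lists of LX-2 cells, 12 of single libraries (p-JUN, H3K4me3, H3K27me3) and 2 merged ones (H3K27ac). Labels give 10000 cells for an assay, fewer than the study's methods state. Submitters' processing notes name Trim Galore, Bowtie2, Picard and hg19. The study names MACS2 for accessibility peaks, and the peak caller, its version, options and control for these lists are not given in the sources used here. For each peak the authors deposited a fold over local background (a ratio), a −log10 p-value, a −log10 q-value and a score, which was not used.

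Genes were those of GENCODE release 44 mapped to GRCh37. Windows were gene bodies plus 2 kb, promoters 1 kb on each side of any annotated start site, and overlaps at least 1 bp on 24 chromosomes. Peaks of 1 mark that overlapped were merged into regions. A peak's percentile is its rank by −log10 q within its list. Summit and background fragments were recovered from the fold and −log10 p of the narrow lists (319 of 319 peaks at or near the clusters gave whole fragments, relative error under 0.0001). H3K27me3 lists allow no such recovery, so their depth is unknown. Duplicates and counting error were not assessed.

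Matrices were compared by a two-sided exact permutation test over libraries. The study states at least 2 biological replicates for its sequencing experiments. The labels do not say whether these libraries were separate cultures, so p-values measure only the spread between these libraries. Library pairs of 1 mark shared 4 to 795 peaks with identical coordinates, so none was a copy of another. The labels do not say that replicate numbers pair libraries, so no pairing was used. Values were named for genes called on 1 matrix only, for the highest H3K4me3 promoter fold and H3K27me3 share of each cluster, and for p-JUN promoters called in all 4 libraries. Other regions were named after their values were seen. The HOX genes, the lists (TALE, HOX-related, Polycomb and Trithorax, cell type markers) and the tests were chosen with earlier results of these data known. Alternatives were a stricter threshold (−log10 q of at least 10, or 2 for H3K27me3), lists of equal length, other windows and overlaps, spans widened by 10 kb, leaving out each library, and pairing. Scripts, tested on simulated data, ran under Python 3.11.15 with pysam 0.24.0, scipy 1.17.1, pandas 2.3.3, numpy 2.4.6 and matplotlib 3.10.9. One sequence under a p-JUN summit is not reported here.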

Additional observations from a re-analysis of the deposited data

How the results depend on the processing

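Of 201 alternative values for 26 results, 153 were counted as unchanged, 26 turned direction and 22 moved. A difference for p-JUN, H3K4me3 or H3K27me3 counted as unchanged unless its sign flipped, even where it fell to 0. A difference of 0 could not turn. H3K27ac differences counted as moved when their sign changed, and counts of genes when they changed by more than a set ratio. Only the AP-1 share was held against a spread, its SD over libraries. With lists of equal length, stiff minus soft covered shares (percentage points) became -0.0472 for p-JUN over all clusters and -0.259 in HOXD, 0.172 for H3K4me3 in HOXD, 0.143 for H3K27me3 over all clusters and 0.367 in HOXB, and 0.0411 for H3K27ac. With the stricter threshold they were -0.000194 for p-JUN over all clusters and -0.308 in HOXD, 0.996 for H3K4me3 in HOXD, and 0.0587 for H3K27me3 over all clusters and 0.151 in HOXB. Widening the spans by 10 kb gave 0.185 for H3K4me3 in HOXD. For H3K27me3 it gave -0.573 over all clusters, -0.454 in HOXA, -0.334 in HOXB, 0.187 in HOXC and -2.02 in HOXD. The cause was not tested in any case.

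The count of matrix-only genes for p-JUN (1) became 0 with the stricter threshold, equal lists, no flank, promoters only or at least 50% of the peak inside, and that for H3K27me3 (1) became 0 with the first 2 and with promoters only. For H3K27ac it went from 5 to 3 with equal lists and to 2 without flanks or at promoters, and the difference in genes called from -1 to 1 with equal lists, 0 without flanks, -2 at promoters and -4 with the stricter threshold. The difference in genes with H3K27me3 (-2.5) was 0 with equal lists and -0.5 with the stricter threshold. Genes with H3K4me3 and H3K27me3 in the whole window in all libraries numbered 3. Their regions of the 2 marks did not overlap, so these were not bivalent promoters. The mean AP-1 share of HOX p-JUN peaks was 15.96% within 50 bp and 21.3% within 100 bp.

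Leaving out 1 library at a time gave covered-share differences for p-JUN of -0.301 to 0.474 over all clusters, -0.322 to 0.982 in HOXA, -0.415 to 0.293 in HOXB, -0.237 to 0.455 in HOXC and -0.124 to 0.349 in HOXD. For H3K4me3 they were -0.448 to 0.877, 0.474 to 2.04, -0.884 to 0.930, -1.01 to 0.817 and -0.671 to 0.502 in the same order. For H3K27me3 they were -0.377 to -0.139 over all clusters, -0.795 to 0.487 in HOXB and -1.72 to -0.360 in HOXD. Directions turned, beyond the p-JUN values given with the results, without soft replicate 1 (0.280 for p-JUN in HOXB, -0.318 and -0.799 for H3K4me3 over all clusters and in HOXB, 0.487 for H3K27me3 in HOXB), soft replicate 2 (-0.0288 for p-JUN over all clusters, 0.817 for H3K4me3 in HOXC), stiff replicate 1 (0.293 for p-JUN in HOXB, 0.108 and 0.502 for H3K4me3 in HOXC and HOXD) and stiff replicate 2 (-0.448 and -0.884 for H3K4me3 over all clusters and in HOXB). Matrix-only genes ranged from 2 to 6 for p-JUN, highest without soft replicate 2, and from 1 to 3 for H3K27me3.

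No design of 2 against 2 libraries can reach a p under 0.33. With replicate number as a block the differences stay as they are by construction (0.0863 points for p-JUN over all clusters). The 18 values of this setting and the 6 of a crossed pairing of p-JUN libraries could therefore only count as unchanged. The paired exact test gave 0 calls, as did the unpaired one. Deviations of same-numbered libraries correlated at -0.136 (p-JUN), 0.167 (H3K4me3) and -0.0221 (H3K27me3) over 20136 genes. The crossed pairing of p-JUN libraries, chosen after seeing the data, also gave 0 calls.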
